A study of Glycine max with 2 samples.

Results

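LHY and the REVEILLE proteins are MYB-type transcription factors of the plant circadian clock. Their transcripts were followed here in leaves of soybean (Glycine max) plants of 2 types, one of early and one of late senescence. The members are all rows whose symbol starts with LHY_ or with RVE and a digit in the deposited tables of the study. There were 15 such rows among 2413 different transcripts at 50 days and 14 among 2471 at 95 days, which make 24 different transcripts of 13 genes, of 4096 transcripts of 3358 genes in all. Plants grew under normal greenhouse conditions and leaf RNA was sequenced at 50 and at 95 days after sowing, to find genes that differ between the senescence types at each age. At each age 1 library of each type was compared, under the names A and B. The column headers and the labels do not say which of A and B is the early type, nor that A is the same type at both ages, so the libraries are called A and B. The cultivars, the number of plants per library and the hour of sampling are facts not given in the labels or files used here.

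In Arabidopsis, LHY is expressed in the morning and represses genes of the evening such as TOC1, while REVEILLE 6 and REVEILLE 8 activate evening genes with the help of LNK co-activators. REVEILLE 1 and REVEILLE 7 are closely related MYB factors of clock output, REVEILLE 1 linking the clock to auxin and growth. Transcripts of all these factors cycle over the day in Arabidopsis, so their level depends on the hour of harvest. A gene model can have several transcripts, or isoforms, and each row of the tables is an isoform, marked by the number after the last point of its identifier.

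Values are normalised reads, that is reads of 1 library divided by its size factor, as deposited with the added 1 taken off. They are not corrected for transcript length, so folds are taken between libraries for the same transcript or gene. Where different isoforms or genes are set side by side, this is by reads, and their lengths are not accounted for. The tables list only transcripts with an unadjusted p under 0.05 in the authors' comparison. Unlisted isoforms were therefore not analysed here, and library depth could not be had. With 1 library per type and age there is no replicate, and no difference below has a replicate check. A transcript is called where the adjusted p in the authors' deposited table is under 0.05 and the absolute log2 ratio of B over A at least 1. Folds carry a 95% exact (Clopper-Pearson) interval on the reads. Where the lower library had 0 reads, the fold is given as at least its value against 3 reads in that library. Intervals and bounds cover counting error only. In whole leaf, fewer cells of a type and less RNA per cell cannot be told apart.

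At 50 days all 7 listed LHY transcripts, from 3 genes, had more reads in A than in B. Of all transcripts listed at that age in the authors' deposited table, 60.8% were higher in A. The median of the deposited log2 ratios was -6.02 for LHY and -5.29 over all listed transcripts. A median over transcripts selected on p lies on the side that holds more of them, and is not a typical ratio. The isoforms fell into a group with reads in both libraries and a group seen in A alone. Glyma.19G260900.2 had 2924 normalised reads in A against 81.7 in B, 35.8-fold higher in A (28.9 to 44.8). Glyma.03G261800.4 had 2741 in A against 41.3 in B, 66.3-fold (49.3 to 91.5). Glyma.07G048500.5 had 1913 in A against 70.4 in B, 27.2-fold (21.6 to 34.7). These were the most-read listed isoforms of their genes, and each was present in B at a low level. The other isoforms, 4 of 7, had 0 reads in B. Among all listed transcripts, 70.5% had 0 reads in the lower library, so such a 0 is common in this table. Glyma.19G260900.1 had the most reads among them, 1065 normalised reads in A, at least 378-fold higher. Glyma.07G048500.6 had 141 in A (at least 49.9-fold), Glyma.03G261800.2 had 91.5 (at least 32.5-fold) and Glyma.03G261800.5 had 32.1 (at least 11.4-fold). The description of Glyma.03G261800 names MYB114, which the RefSeq gene table of soybean (assembly Glycine_max_v4.0) lists under the synonym GmLHY2b.

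Glyma.19G260900.1 was the called LHY transcript, with an adjusted p of 0.036 in the authors' deposited table. The members held 2 called transcripts of 15 at 50 days, both higher in A. Of all listed transcripts at this age, 4.64% were called, and 3.19% were called and higher in A. The adjusted p of the other 6 LHY transcripts in the authors' deposited table lay between 0.371 and 0.94.

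The REVEILLE 6, 7 and 8-like transcripts also had more reads in A at 50 days, 6 of 6 from 4 genes, with a median deposited log2 ratio of -6.83. REVEILLE 7 supplied the other called transcript, Glyma.09G167900.1, with 3838 normalised reads in A against 4.69 in B. It was 818-fold higher in A on only 5 reads in B (350 to 2519), with an adjusted p of 0.0399 in the authors' deposited table. Its sister isoform Glyma.09G167900.2 had 5283 in A against 164 in B, the most of the gene's listed isoforms, and was 32.2-fold higher in A (27.7 to 37.6). The intervals of these isoforms of the same gene do not overlap. The isoform that is called made up 42.1% of the gene's listed reads in A and 2.78% in B, the latter resting on those 5 reads. The other REVEILLE 7 gene, Glyma.16G217700.1, had 2791 in A against 133 in B, 20.9-fold (17.7 to 24.9), the smallest fold among members with reads in both libraries at this age. REVEILLE 8 was listed as Glyma.10G048500.3, with 463 in A against 2.82 in B, 164-fold on only 3 reads in B (56.0 to 800). Its isoform Glyma.10G048500.2 had 105 in A against 0 in B, at least 37.3-fold. REVEILLE 6, Glyma.20G162800.3, had 551 in A against 0 in B, at least 196-fold. The adjusted p of the 5 members not called here lay between 0.311 and 0.939 in the authors' deposited table.

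REVEILLE 1 went the other way at 50 days. Both listed transcripts, from 2 genes, had more reads in B, against 39.2% of all listed transcripts. Glyma.02G241000.1 had 36.9 normalised reads in A against 1182 in B, 32.0-fold higher in B (23.9 to 43.96). Glyma.14G210600.2 had 0 in A against 235 in B, at least 97.5-fold higher. Neither was called, with an adjusted p of 0.939 and 0.286 in the authors' deposited table. They were the only members on the B side at this age.

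**Figure D1:**
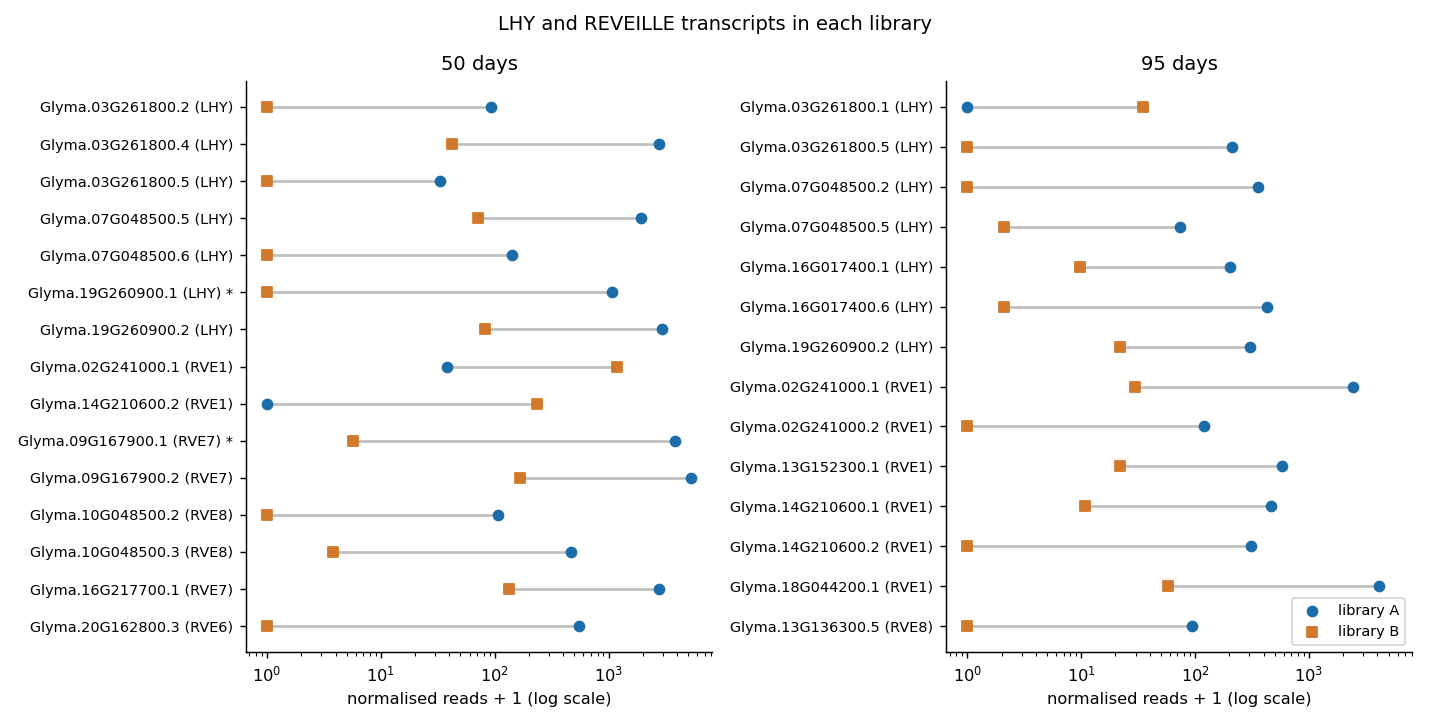
Normalised reads plus 1 (log scale) of every listed LHY and REVEILLE transcript in library A (blue circles) and library B (orange squares) at 50 days (left) and 95 days (right), with 1 library per point and an asterisk at the 2 called transcripts. At 50 days 13 of 15 transcripts were higher in A, the exceptions being the 2 of REVEILLE 1, and at 95 days 13 of 14 were higher in A, the exception being Glyma.03G261800.1.

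At 95 days 6 of 7 LHY transcripts, from 4 genes, had more reads in A, where 46.7% of all listed transcripts were higher in A and 53.3% in B. The median deposited log2 ratio was -5.15 for LHY and 4.52 over all listed transcripts. That overall median again only marks the side with more listed transcripts. Glyma.19G260900.2 had 303 normalised reads in A against 20.8 in B, 14.6-fold higher in A (9.12 to 24.6). A gene not listed at 50 days, Glyma.16G017400, appeared with Glyma.16G017400.1 at 203 in A against 8.75 in B, 23.2-fold (11.5 to 54.6). Its isoform Glyma.16G017400.6 had 431 in A against 1.09 in B, which is 1 read, so its ratio of 394 has a wide interval (70.2 to 15603). Both isoforms of this gene thus lay in A. Glyma.07G048500.5 had 73.5 in A and again 1 read in B, 67.2-fold (11.6 to 2697). Glyma.07G048500.2 had 355 in A against 0 in B, at least 108-fold higher, and was the listed isoform of its gene with the most reads at 95 days, in place of Glyma.07G048500.5 at 50 days. Glyma.03G261800.5 had 212 in A against 0 in B, at least 64.5-fold. On the other side lay a further isoform of this gene, Glyma.03G261800.1, with 0 in A against 33.9 in B, at least 9.08-fold higher in B. This rests on 31 reads in B.

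All 6 listed REVEILLE 1 transcripts, from 4 genes, had more reads in A at 95 days, with a median deposited log2 ratio of -6.25. Glyma.18G044200.1 had 4086 normalised reads in A against 56.9 in B, 71.8-fold higher in A (54.6 to 96.4). Glyma.02G241000.1 had 2422 in A against 28.4 in B, 85.2-fold (57.9 to 131), and its isoform Glyma.02G241000.2 had 118 in A against 0 in B, at least 36.1-fold. These isoforms of the same gene thus lay on the same side. Glyma.13G152300.1 had 575 in A against 20.8 in B, 27.7-fold (17.5 to 46.4). Glyma.14G210600.1 had 460 in A against 9.85 in B, 46.7-fold (24.3 to 103). Glyma.14G210600.2 had 308 in A against 0 in B, at least 93.7-fold. Every listed isoform of these 4 genes had its high library in A. Of the group of REVEILLE 6, 7 and 8, only a REVEILLE 8 isoform was listed, Glyma.13G136300.5, with 93.4 in A against 0 in B, at least 28.5-fold. It comes from another gene than the REVEILLE 8 transcripts listed at 50 days. No REVEILLE 6 or REVEILLE 7 transcript was listed at 95 days.

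None of the 14 members was called at 95 days, where 1.5% of all listed transcripts were called. Their adjusted p in the authors' deposited table lay between 0.142 and 1. In the lower library, 6 of the 14 had 0 reads, against 75.3% of all listed transcripts.

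The members listed at both ages show the contrast between LHY and REVEILLE 1 within the same isoforms. There were 5, of which the 3 LHY isoforms were higher in A at both ages and the 2 REVEILLE 1 isoforms were higher in B at 50 days and in A at 95 days. Of all 788 transcripts listed at both ages, 40.2% were higher in A at both, 9.52% were higher in B at 50 and in A at 95 days, and 22.5% were higher in A at 50 and in B at 95 days. Since nothing states that A is the same type at both ages, the side at the 2 ages can be compared only between families. Exchanging the names A and B at either age would put REVEILLE 1 on the same side at both ages and LHY on opposite sides.

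The levels of these isoforms were set side by side across ages on the deposited scale, which no source states to be shared between the tables. Glyma.02G241000.1 had 36.9 in A against 1182 in B at 50 days, and 2422 in A against 28.4 in B at 95 days. Its high libraries were thus B at 50 and A at 95 days, and its low libraries held 36.9 and 28.4. Glyma.14G210600.2 had 0 in A against 235 in B at 50 days, and 308 in A against 0 in B at 95 days. It shows the same alternation, with 0 reads in its low libraries.

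The 3 LHY isoforms had their high library in A at both ages but differed in level between ages. Folds between ages are given between libraries of the same name, and do not stand for a type, since A may be another type at the other age. Glyma.07G048500.5 had fewer reads at 95 days than the library of that name at 50 days, 1913 against 73.5 for A, 26.0-fold (20.1 to 34.3), and 70.4 against 1.09 for B, a ratio of 64.4 that rests on 1 read (11.2 to 2576). If the names were exchanged, 70.4 in B at 50 days would stand against 73.5 in A at 95 days, with no fall in that pair. Glyma.19G260900.2 had 2924 in A against 81.7 in B at 50 days and 303 against 20.8 at 95 days, fewer at 95 days by 9.66-fold for A (8.48 to 11.1) and 3.93-fold for B (2.37 to 6.84). With the names exchanged, 81.7 in B at 50 days would stand against 303 in A at 95 days, which is higher. Whether these isoforms were lower at 95 days in both types is therefore not known. Glyma.03G261800.5 had more reads in A at 95 days than in A at 50 days, 32.1 against 212, 6.60-fold (4.65 to 9.56), with 0 reads in B at both ages. At 50 days it had far fewer reads than Glyma.03G261800.4, with 2741 in A, which was not listed at 95 days.

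**Figure D2:**
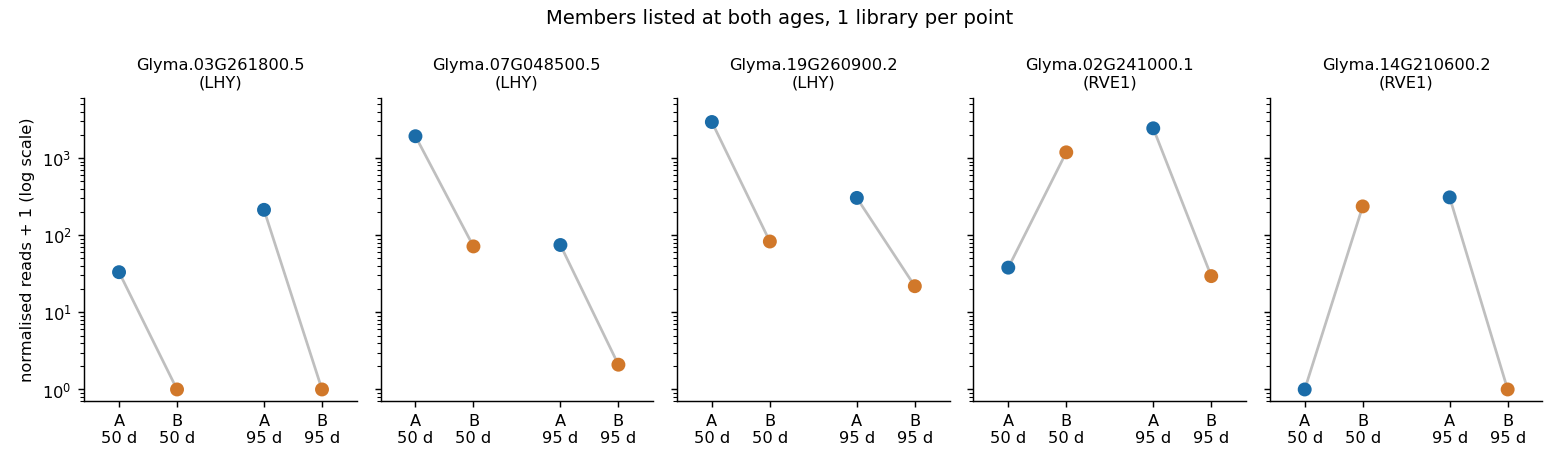
Normalised reads plus 1 (log scale) of the 5 members listed at both ages, in libraries A (blue) and B (orange) at 50 days and at 95 days (d), with 1 library per point and a grey line joining the libraries of an age. The 3 LHY isoforms slope down from A to B at both ages, while the 2 REVEILLE 1 isoforms slope up at 50 days and down at 95 days.

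Summed over listed isoforms, every member gene listed at 50 days except the REVEILLE 1 genes was higher in A, and all 9 genes listed at 95 days were. Glyma.03G261800 summed to 2865 in A against 41.3 in B at 50 days, 69.3-fold (51.5 to 95.6), and to 212 in A against 33.9 in B at 95 days, 6.24-fold (4.24 to 9.48). It is the gene whose isoforms disagreed in side at 95 days. Glyma.19G260900 summed to 3989 and 81.7 at 50 days, 48.8-fold (39.5 to 61.1), of which Glyma.19G260900.2 held 73.3% in A. Glyma.09G167900 summed to 9121 and 169 at 50 days, 54.0-fold (46.6 to 62.9). How the authors' counting divided reads among isoforms that share exons, or among copies of the LHY and REVEILLE 1 genes that resemble each other, is not stated in the labels or files used here.

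Identifier numbers of soybean genes run along the chromosome, and LHY genes had listed neighbours of the clock's repressor family close by. The pseudo-response regulators PRR5, PRR7 and PRR9 repress LHY in Arabidopsis during the day. Each of the 3 LHY genes listed at both ages had a PRR5 or PRR95-like gene listed within 1000 of its identifier number, namely Glyma.03G261300 beside Glyma.03G261800, Glyma.19G260400 beside Glyma.19G260900 and Glyma.07G049400 beside Glyma.07G048500. At 50 days all 19 listed PRR transcripts of these neighbours and all 7 LHY transcripts were higher in A. At 95 days all 11 listed PRR transcripts were higher in B, and 4 of 5 LHY transcripts of these genes were higher in A. Glyma.19G260400.4, for example, had 1106 in A against 3.76 in B at 50 days, and 0 against 932 at 95 days. Glyma.19G260900.2 beside it had 303 in A against 20.8 in B at 95 days. REVEILLE 8 gene Glyma.13G136300 was listed at 95 days near the APRR7 gene Glyma.13G135900, whose isoform Glyma.13G135900.2 was called with 2446 in B and 0 in A, while isoform Glyma.13G135900.3 had 1309 in A against 0 in B.

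**Figure D3:**
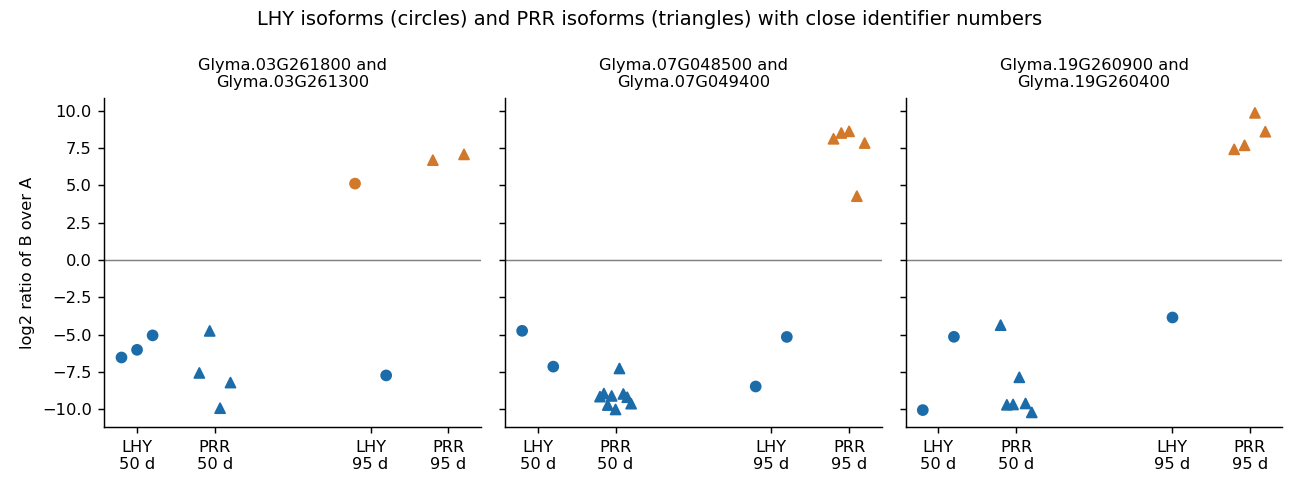
Deposited log2 ratio of B over A for listed isoforms of 3 LHY genes (circles) and of the PRR5 or PRR95-like gene with a close identifier number (triangles), at 50 and 95 days (d), in blue where A and in orange where B had more reads. At 50 days all 7 LHY and all 19 PRR isoforms lie below 0, and at 95 days all 11 PRR isoforms lie above 0 while 4 of 5 LHY isoforms lie below.

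The other listed clock genes were mostly higher in A at 50 days and mostly higher in B at 95 days. The list held 58 transcripts of 24 genes at 50 days, 55 higher in A against 3 in B, and 25 transcripts of 14 genes at 95 days, 6 higher in A against 19 in B. Called transcripts numbered 7 at 50 days, all higher in A, and 1 at 95 days, higher in B. Of all listed transcripts at 50 days, 60.8% were higher in A and 4.64% were called. At 95 days 53.3% of them were higher in B and 1.5% were called. LNK co-activators, partners of REVEILLE 8 in Arabidopsis, had 30 of 30 transcripts from 12 genes higher in A at 50 days, 5 of them called. All 5 had 0 reads in B. In A, Glyma.11G154700.3 had 2023 normalised reads, Glyma.08G179400.4 had 1832, Glyma.11G154700.6 had 1738, Glyma.08G073300.2 had 763 and Glyma.08G179400.3 had 746. At 95 days only 5 LNK transcripts were listed, 2 higher in A against 3 in B. The PRR group had 22 of 22 higher in A at 50 days and 15 of 16 higher in B at 95 days, the reverse of REVEILLE 1. Of these, Glyma.06G136600.1 with 14611 in A and Glyma.07G049400.14 with 1035 in A were called at 50 days, both with 0 reads in B.

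TOC1, the evening gene that LHY represses in Arabidopsis, was on the side of REVEILLE 1 at both ages. Both transcripts listed at 50 days had more reads in B, and both listed at 95 days had more in A. TOC1 was thus opposite all 7 LHY transcripts at 50 days, but on the side of 6 of 7 at 95 days. Glyma.17G102200.4 had 51.4 in A against 1574 in B at 50 days, and 7993 in A against 259 in B at 95 days. Its fold was 30.6 (23.9 to 39.97) towards B and then 30.8 (27.1 to 35.2) towards A. EARLY FLOWERING 3, of the evening complex, was split. Glyma.04G050200.3 had 0 in A against 596 in B at 50 days, and 4182 against 0 at 95 days, as TOC1 did. The other EARLY FLOWERING 3-like transcript, Glyma.07G013500.2, was listed at 50 days alone and lay on the opposite side, with 523 in A against 0 in B. GIGANTEA, Glyma.10G221500.1, was listed at 50 days alone, with 4334 in A against 9.39 in B. A ZEITLUPE-like transcript was listed at 95 days alone, higher in B, and an APRR2-like one at 50 days alone, higher in A.

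The clock transcripts outside the members that were listed at both ages numbered 19, and they allow the same isoform to be followed. Of 12 PRR transcripts, 11 were higher in A at 50 and in B at 95 days. The most-read of these, Glyma.07G049400.16, had 11597 in A against 74.2 in B at 50 days, and 132 against 2585 at 95 days. In the other 10, all likewise isoforms of the LHY neighbours, the high library held 503 to 1188 at 50 days and 103 to 932 at 95 days. The exception, Glyma.13G135900.3, was higher in A at both ages, with 857 and 1309. LNK transcripts split between LNK1-like and LNK2-like ones. The LNK2-like Glyma.04G141400.6 (2109 against 78.9 at 50 days, 369 against 0 at 95 days) and Glyma.15G237600.2 (2525 against 65.7, then 247 against 0) were higher in A at both ages, as the LHY isoforms were. The LNK1-like Glyma.08G179400.3 had 746 in A against 0 in B at 50 days, and 22.4 against 419 at 95 days. Likewise Glyma.05G118300.2 had 334 in A at 50 days and 124 in B at 95 days, and Glyma.15G053000.9 had 497 in A and then 134 in B, each with 0 reads in the other library. No listed clock transcript outside the members was higher in B at both ages.

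**Figure D4:**
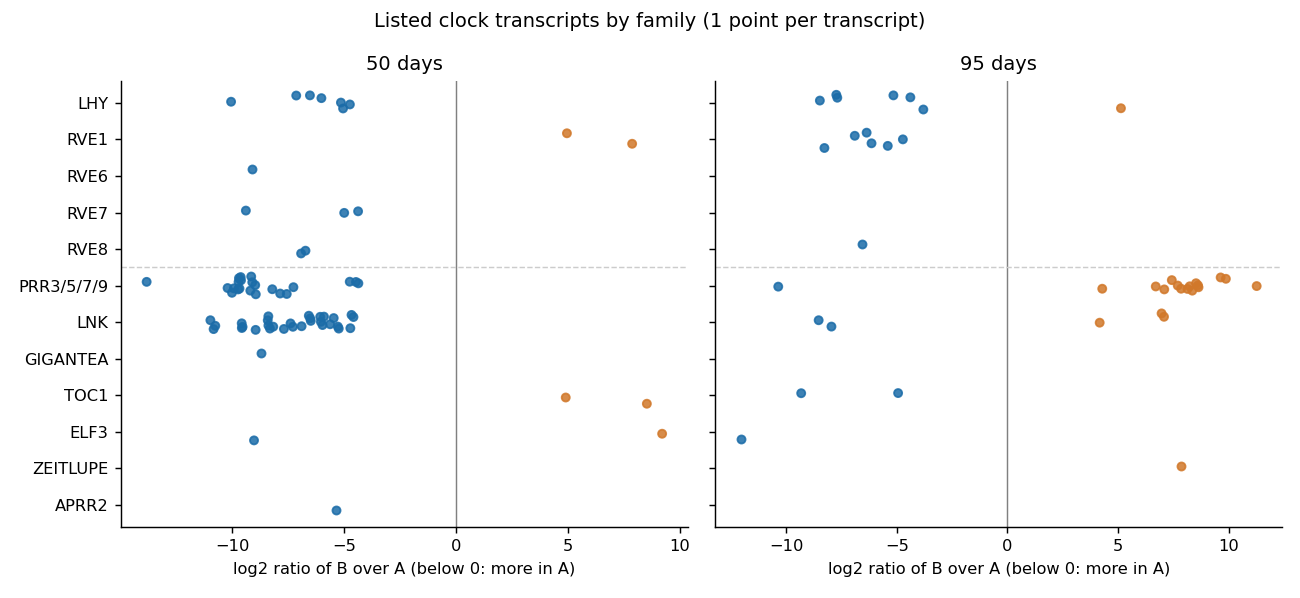
Deposited log2 ratio of B over A for every listed clock transcript by family at 50 days (left) and 95 days (right), with 1 point per transcript, blue for more reads in A and orange for more in B, and the LHY and REVEILLE members above the dashed line. REVEILLE 1 and TOC1 lie right of 0 at 50 days and left of it at 95 days, the PRR group lies left of 0 at 50 days and, but for 1 transcript of 16, right of it at 95 days, and LHY lies left of 0 at both ages but for 1 transcript of 7 at 95 days.

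The transcripts most like each member listed at both ages were taken as the 5 nearest of 783 others by the distance between their pairs of deposited log2 ratios, 2 values per transcript. The nearest to LHY isoform Glyma.03G261800.5 was an LNK2-like transcript, Glyma.15G237600.2, with log2 ratios of -5.24 at 50 and -7.95 at 95 days, at a distance of 0.29. However, the LHY isoform had 0 reads in B at both ages, so its deposited ratios are set by the added 1. At 50 days it had 32.1 normalised reads in A, whereas Glyma.15G237600.2 had 2525 in A against 65.7 in B. At 95 days both had 0 reads in B, with 212 in A for the LHY isoform and 247 for Glyma.15G237600.2. Their closeness is therefore not one of measured ratios at either age. Next came an unnamed protein (Glyma.08G032800.1), a metal-nicotianamine transporter (Glyma.10G172900.2), an F-box protein (Glyma.13G036600.2) and a CBL-interacting kinase (Glyma.02G234800.1), up to a distance of 0.72. Among the nearest to Glyma.19G260900.2 was a PIF4-like factor of light and growth responses, Glyma.14G032200.1, at 0.46, behind a receptor kinase, Glyma.13G033400.1, at 0.22, a feruloyl transferase (Glyma.05G203000.1), a callose synthase (Glyma.15G268800.5) and a dioxygenase (Glyma.08G070000.1). The nearest to Glyma.07G048500.5 were a cytochrome P450, Glyma.14G117200.1, at 0.043, and a phosphate transporter, Glyma.19G164300.1, at 0.044, then a CNOT4-like protein (Glyma.10G048700.1), a receptor kinase (Glyma.08G235900.1) and allantoate amidohydrolase (Glyma.15G156900.3). For REVEILLE 1 isoform Glyma.02G241000.1 the nearest were a methylenetetrahydrofolate reductase, Glyma.06G325300.2, at 0.60, and TOC1-like Glyma.17G102200.4 at 1.42, then an IQ-domain protein (Glyma.02G019700.6), a sulfate transporter (Glyma.14G169300.2) and an ethylene receptor (Glyma.12G241700.2), up to 1.76. This member had reads in every library. By contrast, the reductase had 0 reads in B at 95 days. The sulfate transporter and the ethylene receptor had 0 in A at 50 days and in B at 95 days. Ratios with 0 reads are set by the added 1. For Glyma.14G210600.2 the nearest was a protein kinase, Glyma.11G144800.5, at 0.012, which like it had 0 reads in A at 50 and in B at 95 days, as did an IDM1-like (Glyma.02G146500.2), an INO80-like (Glyma.03G133700.2), an ALG10-like (Glyma.18G179500.1) and an unnamed protein (Glyma.20G215200.3). Any transcript absent from the same libraries at a like level comes near by this measure.

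Markers of leaf tissue in the tables were few, since only transcripts with a low p are listed. At 50 days 4 leaf markers, all chlorophyll a/b-binding proteins of the photosynthetic antenna, were listed, 4 of 4 higher in A, with summed normalised reads of 5424 in A against 197 in B. At 95 days 2 were listed, 1 on each side, with sums of 111 and 1061. They thus moved with the LHY transcripts at 50 days, and their part in the result was not tested. No leghemoglobin and no seed storage protein or oleosin was listed at either age. Transcripts with nodulin in the description numbered 3 at 50 days, of which 1 lay in A, and 1 at 95 days, which lay in A. The senescence-associated nodulin, the early nodulin-like protein and the nodulin homeobox protein among them are not defining markers of nodules.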

How the data were processed

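The labels' protocols name an Illumina NovaSeq for sequencing. Trimmomatic 0.36 and DESeq 1.36.0 are named in the submitters' processing notes. The aligner, counter, genome build and annotation are not stated in the sources used here. Each of 2 tables (50 and 95 days) compares 2 libraries, 1 per type.

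The deposited signal values for A and B, less 1, were whole multiples of 1 step per column for 100% of values (tolerance 0.01), and were read as counts over a size factor. Implied size factors were 1.25 (A) and 1.06 (B) at 50 days, 0.803 (A) and 0.914 (B) at 95 days. The log2 ratio, p-value and adjusted p-value are the authors' deposited ones. At 50 days 1 repeated row was dropped. Depth is unknown, since the tables are selected on p.

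No test was run across types. Members, lists and rules were chosen with earlier results of these data known. By the fixed rule every member is named, with the 5 transcripts nearest in pattern to each member listed at both ages, and values are given for other clock transcripts that were called or listed at both ages (those of PRR neighbours as ranges). GIGANTEA and the EARLY FLOWERING 3-like Glyma.07G013500.2 fall outside that rule and were chosen after their values were seen. Other clock genes were found by words in symbol, match and description. RefSeq names were found through the descriptions for 4 of 13 member genes, and 3 of these lay on the chromosome that the identifier names; no coordinates or sequences are given. The step and interval code was tested on simulated data. Computations used Python 3.11.15 with numpy 2.4.6, pandas 2.3.3 and scipy 1.17.1, and figures matplotlib 3.10.9.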

Additional observations from a re-analysis of the deposited data

Results flagged for a closer look

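The ratio of library B over library A had opposite signs at the 2 ages for 2 REVEILLE 1 isoforms, each higher in B at 50 days and in A at 95 days. For Glyma.02G241000.1 the deposited log2 ratio of B over A was 4.96 at 50 days and -6.36 at 95 days, a change of -11.33. For Glyma.14G210600.2 it was 7.88 and -8.27, a change of -16.15, with 0 reads in the lower library at each age. With 1 library per type and age the change was not tested, and since A is not stated to be the same type at both ages, it is a change between libraries and not known to be one between types.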

How the results depend on the processing

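No paired analysis was possible because each type and age has 1 library, and none could be left out. No direction reversed under any alternative run, but most runs could hardly have reversed one. A larger added count, or 0 reads set to 3, cannot change which library is higher for any member. Runs on fewer transcripts or summed isoforms used groups on a single side, but for 1 of 7 LHY transcripts at 95 days. Centring at 50 days moved ratios towards B and could have reversed members higher in A, but did not. The margin was small for Glyma.16G217700.1, whose log2 ratio of -4.38 lay just beyond the centre of -4.33. Called members stayed at 2 and 0 with an adjusted p under 0.1. An absolute log2 ratio of at least 2 could not change them, since every member exceeded it. Of the 5 members at both ages, 3 lay on the same side at both. Rescaling by the median log2 difference of -0.20 between ages shifts all levels alike. It therefore could not change a side within an age, nor move a level by over 1.5 times. Adding description words to the symbol rule found no further member.

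Counts in A that moved were those on fewer transcripts. LHY at 50 days gave 3 of 3 with 1 transcript per gene and 2 of 2 with an adjusted p under 0.5, LHY at 95 days 2 of 2, and REVEILLE 6, 7 and 8 at 50 days 3 of 3 with that limit. Median log2 ratios kept their sign, with the limits given above for such runs. With a pseudocount of 10 they were -4.58 and -3.51 for LHY at 50 and 95 days and 4.64 and -4.78 for REVEILLE 1. They were -5.07 for REVEILLE 6, 7 and 8 at 50 days and -3.37 for the 1 REVEILLE 8 transcript at 95 days. A further run set 0 reads to 3 and left the added 1 off all other values. It gave -5.16 and -6.01 for LHY, 5.80 for REVEILLE 1 at 50 days and -4.83 for REVEILLE 8 at 95 days. With 1 transcript per gene they were -5.14 and -7.71 for LHY and -5.96 for REVEILLE 6, 7 and 8 at 50 days. LHY transcripts with at least 100 normalised reads gave -7.69 at 95 days. Centring used listed transcripts with reads in both libraries, whose medians were -4.33 at 50 and 3.98 at 95 days. It gave -1.69 and -9.13 for LHY and 10.75 and -10.23 for REVEILLE 1. For REVEILLE 6, 7 and 8 it gave -2.50 at 50 days, and for the 1 REVEILLE 8 transcript listed at 95 days -10.54. That centre is itself taken from transcripts selected on p. Values with few reads in the lower library are limited by those reads.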

Other observations

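Other genes listed close to members by identifier number were not all on the member's side. Both REVEILLE 8 genes had a CNOT4-like gene 200 above them in number, Glyma.10G048700 and Glyma.13G136500. At 50 days the isoforms of Glyma.10G048700 were split, Glyma.10G048700.1 with 1862 normalised reads in A against 61.0 in B, and Glyma.10G048700.5 with 0 in A against 2918 in B. Between it and the REVEILLE 8 gene, Glyma.10G048600.2, a ribosomal protein L4 transcript, had 0 in A against 10631 in B, whereas the 2 REVEILLE 8 isoforms were higher in A. At 95 days both listed isoforms of Glyma.13G136500 were higher in A, as was the REVEILLE 8 isoform Glyma.13G136300.5.

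Near the LHY gene Glyma.19G260900, the photosystem I antenna transcript Glyma.19G261400.1 had 1390 in A against 27.2 in B at 50 days, and 33.6 in A against 1061 in B at 95 days. It was thus on the side of LHY at 50 days and on that of the neighbouring PRR95-like isoforms at 95 days. A Dicer-like 1 transcript of the same stretch, Glyma.19G261200.3, of microRNA processing, had 2197 in A against 0 in B at 95 days. It was the exception among the 4 transcripts outside the PRR family listed near Glyma.19G260900 at 95 days, of which 3 were higher in B.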
